A study of Arabidopsis thaliana with 16 samples.

Results

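NRT2.5 (AT1G12940) and HHO2 (AT1G68670) are 2 Arabidopsis genes of nitrate uptake and nitrate signalling, followed here through whole rosettes of autophagy mutants and wild type. They were chosen with earlier results of these data known, so the tests on them are not independent of that choice. Each was matched by locus in the probe annotation and is named by 1 of the 22810 probe sets on the array. The mutants were atg5 (allele atg5-3) and atg9, each represented by 1 SALK line with a block in autophagy, and the wild type was Col-0. Plants grew in short days (8 h light, 16 h dark). All 3 genotypes were sampled on low nitrate (2 mM) at 60 days (T60) and at 30 days (T30), and atg5 and Col-0 also on high nitrate (10 mM). Each of the 8 groups had 2 arrays, 1 from each of 2 cultures grown months apart, and each array held RNA from a mix of more than 6 rosettes.

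Plants take up nitrate through a low-affinity and a high-affinity system. NRT2.5 is a high-affinity carrier of the NRT2 family that is known for its induction in nitrogen-starved adult plants, in the root epidermis and in the minor veins of leaves. HHO2 is a GARP-type transcription factor of the NIGT1/HRS1 family. Members of this family are induced by nitrate and repress genes of nitrogen starvation, the high-affinity nitrate transporters among them, and they also act in the response to phosphate. Autophagy delivers cytoplasm to the vacuole for breakdown and supplies the nitrogen that old leaves export.

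The values are linear MAS5 signals, in which array intensities were scaled to a common mean, and changes are differences of log2 signals. The SE of limma's fit follows ±, and n = 2 arrays per group throughout. Every adjusted p is from limma with Benjamini-Hochberg adjustment over 13648 probe sets, with 0.05 as the threshold. It rests on how far the 2 cultures of pooled plants differ beyond their common difference, taken over all 8 groups. Median signals per array lay between 154 and 254. The Col-0 T30 array of culture 1 stood apart by its lower quartile, which was 89.1 where the remaining 15 arrays had 26.4 to 38.9. The atg5 T60 array of culture 1 stood apart by a 3′/5′ actin signal ratio, a mark of RNA quality, of 9.05, against 1.5 to 3.04. Values without both arrays are given beside many of the results of NRT2.5 and HHO2 that rest on either of them. A whole-rosette signal cannot tell apart fewer cells of a type and less RNA per cell. The rosette marker RCA, for Rubisco activase, had signals of 17246 to 31078 in the 16 arrays.

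NRT2.5 had its highest signals in 60-day rosettes on low nitrate and was near the lower end of the signal range in 30-day rosettes on low nitrate and on high nitrate, where the labels disagree on age. Its signals in culture 1 and culture 2 were 903.5 and 461.5 in atg9 T60, 239.7 and 1177.6 in atg5 T60, and 283.2 and 234.1 in Col-0 T60. At 30 days on low nitrate they were 20.7 and 28.8 in atg9, 27.5 and 37 in atg5, and 154.7 and 33.9 in Col-0. On high nitrate they were 57.5 and 92.1 in atg5, against 24.9 and 58.7 in Col-0. All 6 arrays of low nitrate T60 were thus above all 10 others. The highest of the 10, at 154.7, was the Col-0 T30 array whose lower quartile stood apart. In 3 arrays, those of culture 1 for atg9 T30, atg5 T30 and Col-0 on high nitrate, the gene lay under the array's own lower quartile.

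By geometric mean the order of NRT2.5 levels was atg9 T60 (646), atg5 T60 (531), Col-0 T60 (257), atg5 on high nitrate (72.8), Col-0 T30 (72.4), Col-0 on high nitrate (38.2), atg5 T30 (31.9) and atg9 T30 (24.4). Of neighbours in this order, Col-0 T60 and atg5 on high nitrate had ranges that did not overlap, and each other neighbouring pair overlapped. Its geometric mean over all arrays was 104, just above the limit of 93.9 set for testing, so NRT2.5 entered the test through the low nitrate T60 groups alone. The spread within a group was widest in atg5 T60, where the arrays differed 4.91-fold, and in Col-0 T30, where they differed 4.56-fold. Both groups hold an array that stood apart.

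HHO2 had its lowest signals where NRT2.5 was highest, at 60 days on low nitrate, and its highest signals on high nitrate. Its signals in culture 1 and culture 2 were 357.5 and 424 in atg9 T60, 852.1 and 358.7 in atg5 T60, and 290.2 and 451.2 in Col-0 T60. At 30 days on low nitrate they were 1140.9 and 1014.1 in atg9, 1505.9 and 1146.9 in atg5, and 1103.5 and 826 in Col-0. On high nitrate they were 2191.5 and 2938.5 in atg5, against 2248.5 and 2748.1 in Col-0. The 12 low-nitrate arrays were below all 4 high-nitrate arrays. The T60 and T30 arrays overlapped at 1 point only, since the atg5 T60 array of culture 1 (852.1) was above the Col-0 T30 array of culture 2 (826).

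From the lowest up, the geometric means of HHO2 at T60 were 362 in Col-0, 389 in atg9 and 553 in atg5. Those at T30 were 955 in Col-0, 1076 in atg9 and 1314 in atg5, and those on high nitrate were 2486 in Col-0 and 2538 in atg5. Ranges did not overlap between atg9 T30 and atg5 T30, nor between atg5 T30 and Col-0 on high nitrate, and the other neighbours in this order overlapped. HHO2 was bright in every array, and 84.6% of probe sets had a lower mean log2 signal, against 41.5% for NRT2.5. The widest pair was again atg5 T60, with a 2.38-fold difference between its arrays.

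**Figure D1:**
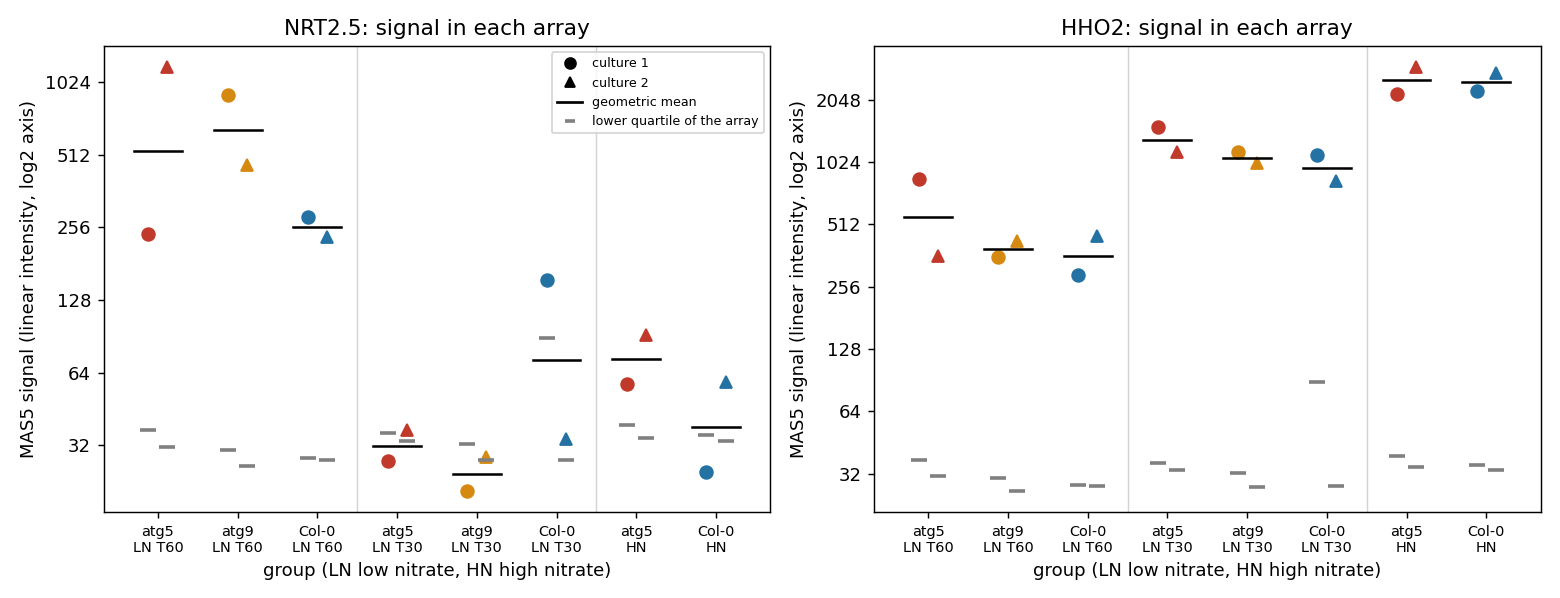
MAS5 signals of NRT2.5 (left) and HHO2 (right) on log2 axes in the 16 arrays, by group, with circles for culture 1, triangles for culture 2, black lines for geometric means and grey dashes for each array's lower quartile. All 6 NRT2.5 signals at T60 on low nitrate lie at or above 234.1 and the other 10 at or below 154.7, while the 12 HHO2 signals on low nitrate lie below the 4 on high nitrate.

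Age was tested on low nitrate, T60 against T30 in each genotype, to ask how rosettes change as leaves grow old. NRT2.5 rose in both mutants. Its log2 change was 4.73 ± 0.81 in atg9 (adjusted p = 0.00311) and 4.06 ± 0.81 in atg5 (adjusted p = 0.00498). In Col-0 it was 1.83 ± 0.81 (adjusted p = 0.151), with 0.87 in culture 1 and 2.79 in culture 2. The mean of the 3 genotypes was 3.54 ± 0.47 (adjusted p = 0.000132), or 11.6-fold. Because the 30-day signals were dim, the change with 32 added to every signal is given as a damped estimate, and for the mean of the genotypes it was 6.55-fold. Without both arrays that stood apart, the log2 change was 4.73 in atg9, 5.07 in atg5 and 4.29 in the mean, and all 3 passed. In Col-0 it was then 3.06 ± 0.59 and passed (adjusted p = 0.0376), whereas with any single array left out it ran from 0.46 to 3.20 and passed in 0 of 16 fits (lowest adjusted p = 0.061).

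HHO2 fell with age in all 3 genotypes. The log2 change was -1.47 ± 0.38 in atg9 (adjusted p = 0.0184), -1.25 ± 0.38 in atg5 (adjusted p = 0.0309) and -1.40 ± 0.38 in Col-0 (adjusted p = 0.0362). The mean was -1.37 ± 0.22 (adjusted p = 0.000413), or 0.386 of the 30-day level. Without both arrays that stood apart, the Col-0 value was -1.10 ± 0.32 and no longer passed (adjusted p = 0.0899), while the atg5 value was -1.96 and the mean -1.51, and both passed. Age moved a large part of the array. Of all probe sets tested, 22.1% passed in atg9, 25.9% in atg5, 11.6% in Col-0 and 49.2% for the mean, so that passing this test is common. By size, NRT2.5 was 57th from the most raised and HHO2 485th from the most lowered in the mean of the genotypes, or 91st and 431st with 32 added. NRT2.5 entered the test only through its low nitrate T60 signals, so its place and its adjusted p values with age are a description.

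The nitrate comparison set low nitrate against high nitrate in Col-0 and atg5. Some label fields put the age of the 4 high-nitrate arrays at 30 days and others at 60 days, so both low-nitrate ages were set against them, and for 1 of the ages nitrate and age cannot be told apart. At 60 days, NRT2.5 was higher on low nitrate by 2.87 ± 0.81 in atg5 (adjusted p = 0.211), and by 3.88 without both arrays that stood apart. In Col-0 it was higher by 2.75 ± 0.81 (adjusted p = 0.196). The mean of both genotypes was 2.81 ± 0.57 and passed (adjusted p = 0.0266), a 7.01-fold difference, or 4.68-fold with 32 added. All 4 low-nitrate T60 arrays were above all 4 high-nitrate arrays. In this comparison 2.84% of probe sets passed, and NRT2.5 was 3rd from the most raised of 13648, or 6th with 32 added. It entered the test only through its low nitrate T60 signals, so this place and its adjusted p values at 60 days are a description. In the single genotypes 0.0659% passed in atg5 and 0.535% in Col-0. The mean did not pass when any 1 of 6 arrays was left out, which were both Col-0 T60 arrays and the 4 high-nitrate arrays (log2 change 2.52 to 3.10, adjusted p up to 0.143). Without both arrays that stood apart it was 3.32 and passed (adjusted p = 0.00499), as did Col-0 alone (2.75, adjusted p = 0.0367).

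At 30 days NRT2.5 did not pass against high nitrate. Its log2 change was -1.19 ± 0.81 in atg5 (adjusted p = 0.359), 0.92 ± 0.81 in Col-0 (adjusted p = 0.497) and -0.13 ± 0.57 in the mean (adjusted p = 0.882; 95% interval -1.38 to 1.11). The Col-0 value was 2.64 in culture 1 and -0.79 in culture 2, and it was -0.30 without both arrays that stood apart. The background here was 12.4% of probe sets past the threshold in atg5, 8.06% in Col-0 and 27.3% for the mean.

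HHO2 was lower on low nitrate at both ages. At 60 days its log2 change was -2.20 ± 0.38 in atg5 (adjusted p = 0.0768), -2.78 ± 0.38 in Col-0 (adjusted p = 0.00632) and -2.49 ± 0.27 in the mean (adjusted p = 0.000981). The mean equals 0.178 of the high-nitrate level and was 42nd from the most lowered probe set. At 30 days it was -0.95 ± 0.38 in atg5 (adjusted p = 0.119), -1.38 ± 0.38 in Col-0 (adjusted p = 0.0454) and -1.16 ± 0.27 in the mean (adjusted p = 0.00841). The Col-0 value at 30 days was -1.68 without both arrays that stood apart. Both atg5 values passed without the 2 arrays that stood apart, at -2.91 for 60 days (adjusted p = 0.0298) and -0.95 for 30 days (adjusted p = 0.0351). The means were then -2.84 at 60 days and -1.31 at 30 days, and both passed. The Col-0 call at 30 days was close to the threshold and was lost in 12 of the 16 fits that left out 1 array.

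The mutants were set against Col-0 under each condition to ask whether a block in autophagy changes either gene. Neither gene passed in any of the 7 comparisons between genotypes. At T60 on low nitrate NRT2.5 was 1.33 ± 0.81 higher in atg9 than in Col-0 (adjusted p = 0.999, 95% interval -0.44 to 3.09). In atg5 it was 1.05 ± 0.81 higher (adjusted p = 0.47, interval -0.72 to 2.81), with -0.24 in culture 1 and 2.33 in culture 2. Without both arrays that stood apart it was 2.06 higher in atg5. At T30 the differences were -1.57 in atg9 and -1.18 in atg5, and without both arrays that stood apart they were -0.34 and 0.04. On high nitrate the atg5 difference was 0.93. Both T60 intervals span more than 3 log2 units and hold 0 as well as differences of several fold above it.

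For HHO2 the same differences were smaller and their intervals narrower. At T60 it was 0.11 ± 0.38 in atg9 (interval -0.72 to 0.93) and 0.61 ± 0.38 in atg5 (interval -0.21 to 1.43). The atg5 value was 1.55 in culture 1 and -0.33 in culture 2, and it was -0.10 without both arrays that stood apart. At T30 it was 0.17 in atg9 and 0.46 in atg5, or 0.47 and 0.76 without those arrays. On high nitrate it was 0.03 in atg5 (interval -0.79 to 0.85). Few probe sets passed in most of these comparisons. Against Col-0 the share was 0.044% for atg9 T60, 5.83% for atg5 T60, 0.00733% for atg9 T30, 0% for atg5 T30 and 0.169% for atg5 on high nitrate. For atg5 T30, where limma called 0 probe sets, 960 had an unadjusted p under 0.05.

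Between the mutants, atg9 minus atg5, NRT2.5 differed by 0.28 ± 0.81 at T60 and -0.39 ± 0.81 at T30, and HHO2 by -0.51 ± 0.38 and -0.29 ± 0.38. The cultures had opposite signs at T60, with 1.91 in culture 1 and -1.35 in culture 2 for NRT2.5, and -1.25 and 0.24 for HHO2. None of these differences passed, and 0.00733% of probe sets did so at either age.

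NRT2.5 passed with age in the mutants and not in Col-0, so the difference between these changes was tested directly. The age change in atg9 minus that in Col-0 was 2.89 ± 1.14 (unadjusted p = 0.0267, adjusted p = 0.988), and in atg5 minus Col-0 it was 2.23 ± 1.14 (adjusted p = 0.399). Both were above 0 without the arrays that stood apart, at 1.67 and 2.02, and neither passed. For HHO2 the same differences were -0.07 ± 0.53 and 0.15 ± 0.53. The nitrate change in atg5 minus that in Col-0 was 0.12 at T60 and -2.11 at T30 for NRT2.5, and 0.58 and 0.43 for HHO2, and none passed. The background was 0.00733% for the age change of atg9, 0.161% for that of atg5, and 0% for both nitrate changes, where 407 probe sets at T60 and 784 at T30 had an unadjusted p under 0.05.

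**Figure D2:**
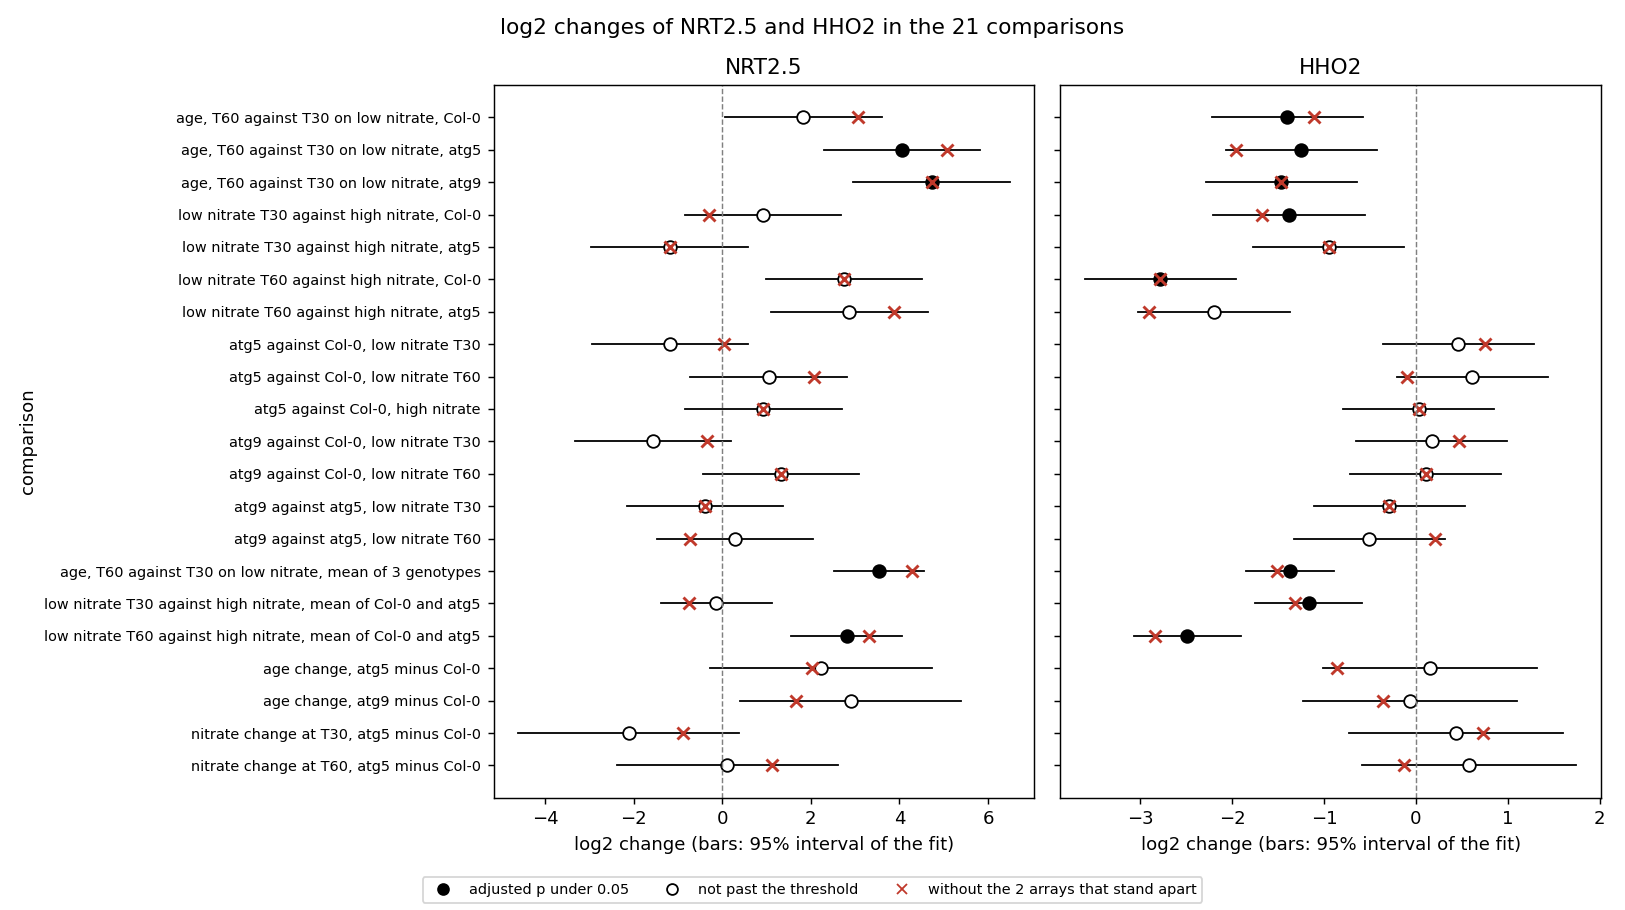
Fitted log2 changes of NRT2.5 (left) and HHO2 (right) in the 21 comparisons, as circles with 95% intervals, filled where the adjusted p was under 0.05, and red crosses for the fit without the 2 arrays that stood apart. The filled circles of NRT2.5 are all above 0 and those of HHO2 all below 0, and none of the comparisons between genotypes is filled.

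Over the 14 comparisons of 2 groups, NRT2.5 passed in 2, both higher, and HHO2 in 5, all lower. The genes ran against each other over the arrays, though not at every step. From high nitrate to low nitrate T30 the mean log2 change was -1.16 for HHO2 and -0.13 for NRT2.5. The correlation of their log2 signals was r = -0.73 (Spearman's rho = -0.66) over 16 arrays, -0.74 over the 14 arrays without those that stood apart and -0.84 over the 12 low-nitrate arrays. These arrays share groups, so the values are a description. Among 7320 probe sets of 1 gene, HHO2 was 264th from the lowest correlation with NRT2.5, and NRT2.5 was 75th from the lowest with HHO2, so many other genes ran more strictly against each of them. Within groups, the 2 arrays differed in opposite directions for the 2 genes in 5 of the 8 groups and in the same direction in 3, which were Col-0 T30 and both high-nitrate groups. The same count was not made for other probe sets, so it is a description and no sign of a link within groups. The widest opposed pair was atg5 T60, where the array with the lower NRT2.5 signal, 239.7 against 1177.6, had the higher HHO2 signal, 852.1 against 358.7. The lower of these NRT2.5 signals came from the array whose actin ratio stood apart, and the part of RNA quality in this difference was not tested.

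**Figure D3:**
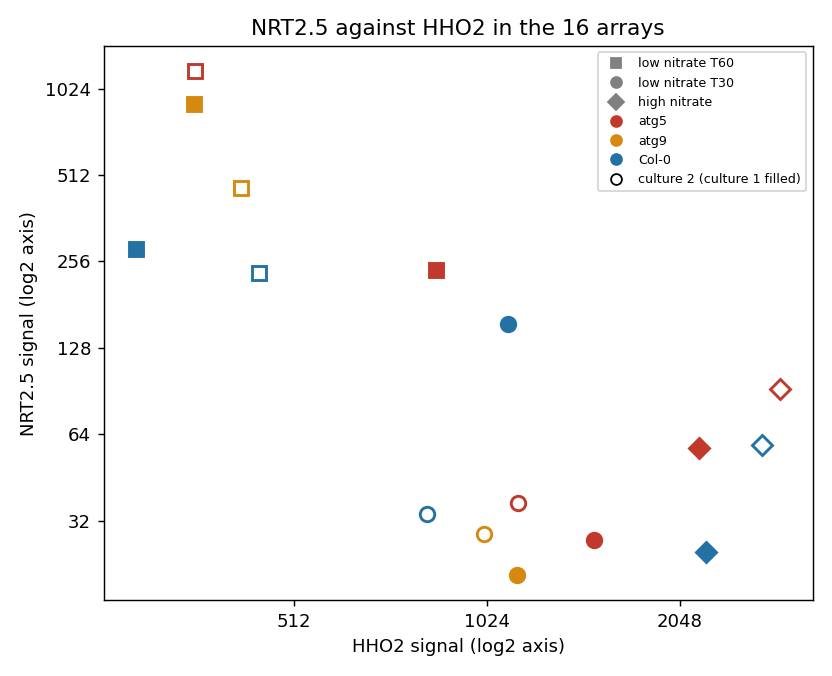
NRT2.5 signal against HHO2 signal in the 16 arrays, both on log2 axes, with squares for low nitrate T60, circles for low nitrate T30, diamonds for high nitrate, colours for genotypes and open symbols for culture 2. The T60 arrays occupy the upper left, with NRT2.5 at or above 234.1, and the high-nitrate arrays the lower right, with HHO2 at or above 2191.5.

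HHO2 could be set beside other loci of the NIGT1/HRS1 family. Of 7 loci in the list, 5 had a probe set naming 1 gene and 4 were bright enough to be tested. The 3 tested loci besides HHO2 were AT1G25550, AT4G37180 and AT1G49560. For the mean of the genotypes with age, HHO2 and AT1G25550 were lower and the other 2 did not pass, which is near the background of 49.2% of probe sets. For low nitrate T60 against high nitrate, where 2.84% of probe sets passed, the mean of Col-0 and atg5 was lower for HHO2, AT1G25550 and AT4G37180. AT1G49560 passed in none of the comparisons. AT3G25790, the dim locus, had signals of 2.7 to 43.1 and was not tested.

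AT1G25550 had signals of 278.8 and 202.1 in atg9 T60, 651.4 and 398.4 in atg5 T60, and 83.6 and 114.3 in Col-0 T60. Both atg9 arrays and both atg5 arrays were thus above both Col-0 arrays at this age. At T30 it had 1016.2 and 423.1 in atg9, 984.7 and 495 in atg5, and 670 and 271.2 in Col-0, and on high nitrate 1045.4 and 1001.9 in atg5 and 572.1 and 516.6 in Col-0. At T60 on low nitrate it was 2.38 ± 0.39 higher in atg5 than in Col-0 (adjusted p = 0.00605), where 5.83% of probe sets passed. In atg9 it was 1.28 ± 0.39 higher than in Col-0 at T60 (adjusted p = 0.423). Without the arrays that stood apart the atg5 difference was 2.23 and missed the threshold (adjusted p = 0.0539). HHO2, in the same comparison, gave 0.61 in atg5 and 0.11 in atg9.

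With age AT1G25550 fell in atg9 (-1.47, adjusted p = 0.0211) and in Col-0 (-2.125, adjusted p = 0.00894), while in atg5 the log2 change was -0.45 (adjusted p = 0.41). The difference in age change between atg5 and Col-0 was 1.67 ± 0.55 and did not pass (adjusted p = 0.222). The Col-0 change was -1.68 without the arrays that stood apart (adjusted p = 0.0837). Against high nitrate at T60 its log2 change was -2.48 in Col-0 (adjusted p = 0.0133), and in atg5 the change was -1.01 (adjusted p = 0.332).

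AT4G37180 had signals of 122.4 and 56.2 in atg5 T60, 63.2 and 54.2 in Col-0 T60, 221.3 and 259.7 in atg5 on high nitrate and 304 and 335.2 in Col-0 on high nitrate. Every low-nitrate array was below every high-nitrate array for this locus. Its mean log2 change from high nitrate was -1.99 ± 0.37 at T60 (adjusted p = 0.0172) and -1.52 ± 0.37 at T30 (adjusted p = 0.0114), and without the arrays that stood apart these were -2.15 and -1.18 and both passed. In Col-0 alone it was -2.15 at T30 (adjusted p = 0.0304), and without the arrays that stood apart it was -1.47 (adjusted p = 0.142).

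**Figure D4:**
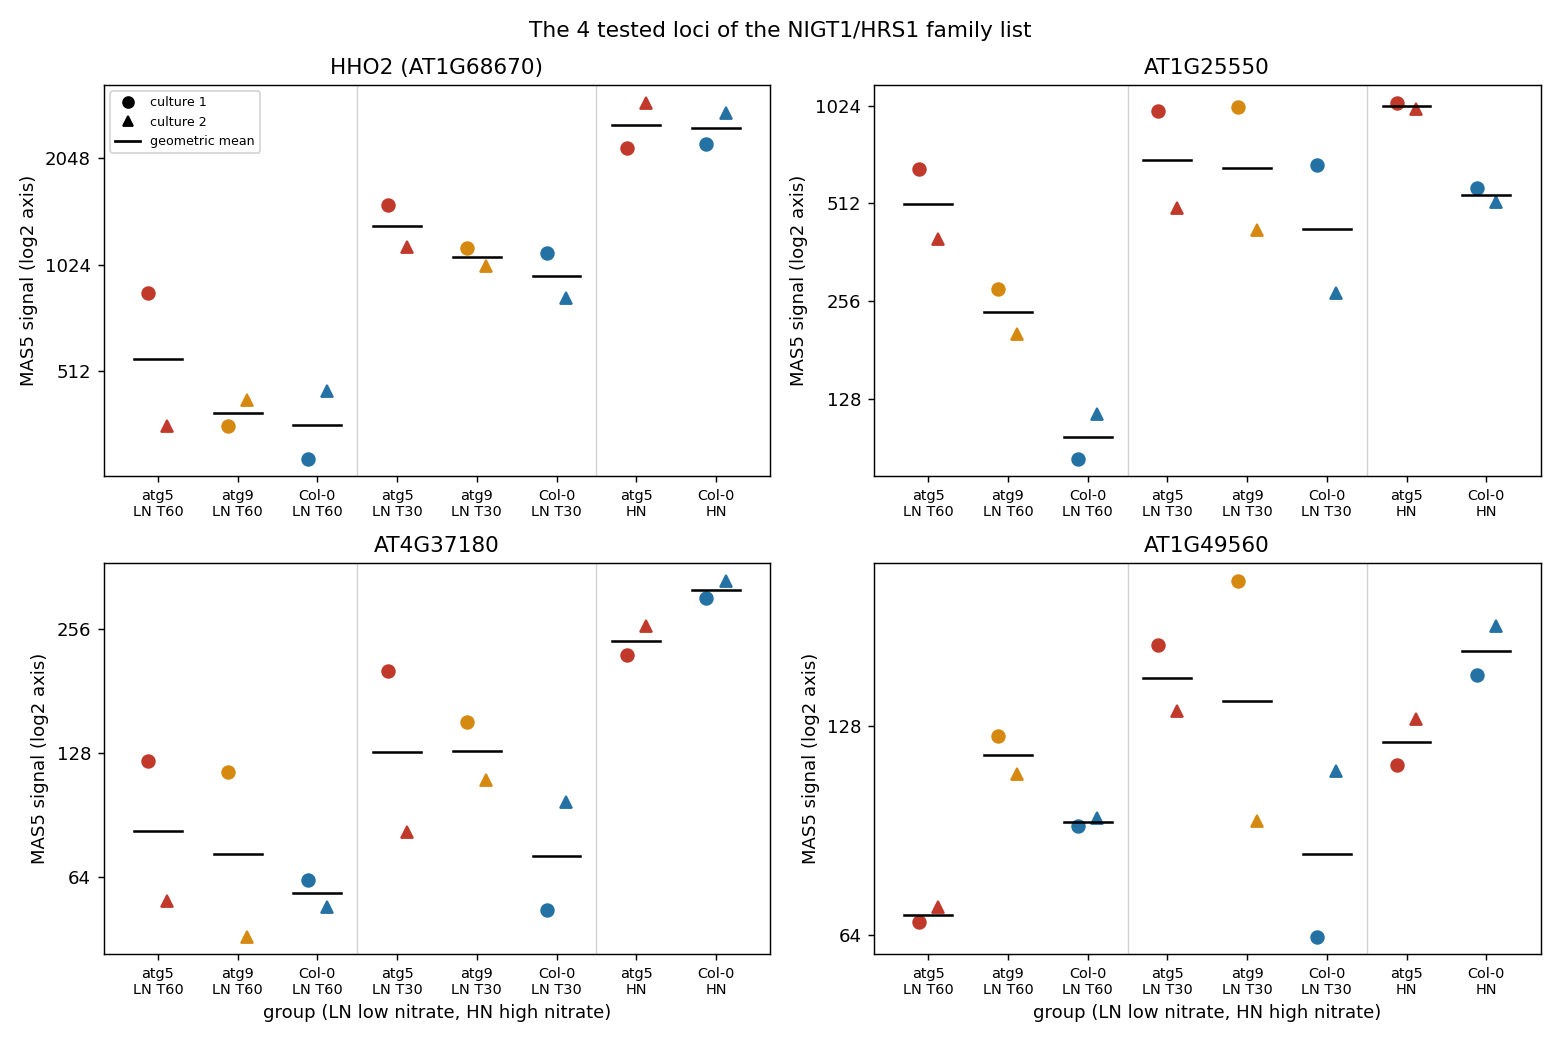
MAS5 signals on log2 axes of the 4 tested loci of the NIGT1/HRS1 family list in the 16 arrays by group, with circles for culture 1, triangles for culture 2 and lines for geometric means. The 4 high-nitrate arrays are the highest for HHO2 and for AT4G37180, while AT1G25550 is lowest in the Col-0 T60 arrays at 83.6 and 114.3.

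The NRT2 and NAR2 list held 9 loci, of which NRT2.5 and AT4G24730 had a probe set. AT4G24730 was entered as a partner of the NRT2 transporters, but the annotation at hand does not give it that role. Its place in the list is thus unverified. Its signals lay between 261 and 471.8 in the 16 arrays, and it passed in none of the comparisons. NRT2.5 was thus the only carrier of its family that could be followed with this annotation.

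The 6 pathway lists cover nitrate transport, assimilation, signalling, the NIGT1/HRS1 family and phosphate starvation. Over all of them 9 loci besides NRT2.5 and HHO2 were tested, of 131 listed. The unverified AT4G24730 is among the 9. None of the 31 assimilation loci had a probe set naming it alone. For age in the mean of the genotypes, where 49.2% of all probe sets passed, 1 of the 9 was higher, 2 were lower and 6 did not pass, with a median log2 change of -0.41, against 0.06 over all probe sets tested. For low nitrate T60 against high nitrate (background 2.84%) 0 were higher, 2 lower and 7 did not pass (median -0.29, against 0.02), and for T30 (background 27.3%) 1 was higher, 2 lower and 6 did not pass (median -0.28, against 0.01). With so few loci these counts describe the loci themselves and not the pathways.

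Among the other transporters 4 of 22 loci had a probe set naming 1 gene and 2 were tested. NPF6.2 (AT2G26690), a low-affinity nitrate transporter of leaf petioles, had signals of 1373.8 and 1903.6 in atg9 T60, against 4410.2 and 5716.1 in atg9 T30. It fell with age by 1.63 ± 0.33 in atg9 (adjusted p = 0.00602) and by 1.21 ± 0.33 in atg5 (adjusted p = 0.0195), and in Col-0 the change was -0.83 (adjusted p = 0.116). In the atg5 change the threshold was missed without the arrays that stood apart (-1.33, adjusted p = 0.0753). NRT2.5 rose with age in the same mutants. AT1G22550, the other tested locus, passed in none of the comparisons.

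Of the phosphate list 2 of 36 loci were tested. WRKY6, a transcription factor of senescence and of the response to low phosphate, rose with age by 1.99 in atg9, 2.37 in atg5 and 1.49 in Col-0 (adjusted p = 0.00484, 0.00191 and 0.0294). Its Col-0 T30 signals were 39.1 and 37.4, and the first of them lay under the lower quartile of its array (89.1). With 32 added the changes were 1.50, 1.85 and 0.99. The Col-0 change missed the threshold without the arrays that stood apart (1.53, adjusted p = 0.0731). In atg5 WRKY6 was also lower on low nitrate T30 than on high nitrate (-1.68, adjusted p = 0.0171). AT1G63010 passed in none of the comparisons. The 1 tested locus of the signalling list, AT3G60320, fell with age in atg5 (-0.64, adjusted p = 0.0368; -0.57 and adjusted p = 0.13 without the arrays that stood apart) and was higher in atg5 on low nitrate T30 than on high nitrate (0.77, adjusted p = 0.0304).

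Markers of other tissue were followed beside these results, since NRT2.5 is a gene of roots and veins as well. The root marker PYK10, a beta-glucosidase, fell with age by 1.33 ± 0.21 in the mean of the genotypes (adjusted p = 0.000371), opposite to NRT2.5. It was 1.85 ± 0.25 higher on low nitrate T30 than on high nitrate (adjusted p = 0.000725) and gave 0.68 ± 0.25 at T60 (adjusted p = 0.163). PYK10 signals ran from 228.3 to 1310.6. Of 6 root markers listed, the second with a probe set naming 1 gene was the root-hair expansin EXPA7. It was at 2.8 to 152.7 and too dim to test. The vein marker SWEET11, a sucrose exporter of phloem parenchyma, was 0.89 higher on low nitrate T30 than on high nitrate (adjusted p = 0.00802). It gave 0.52 at T60 (adjusted p = 0.18) and -0.42 with age (adjusted p = 0.0543). Of 4 vein markers it was the only 1 with a probe set naming 1 gene. RCA passed in none of the comparisons, and none of the 5 flower markers had a probe set naming 1 gene. The part of other tissue in the HHO2 and NRT2.5 results was not tested.

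The genes most like NRT2.5 over the 16 arrays, among 7319 other probe sets of 1 gene, were AT5G52070 (r = 0.933), AT3G60800 (0.933), AT5G16980 (0.918), AT4G33540 (0.916) and AT4G32440 (0.912). Those most opposed were AT5G13240 (-0.929), AT2G29290 (-0.926) and LHCB4.1 (-0.923), an antenna protein of photosystem II. In all, 9 probe sets correlated above 0.9 with NRT2.5 and 8 below -0.9, around a median of 0.09. All arrays share their groups and cultures, and these correlations say how alike the patterns were and no more. AT4G33540 changed with age by 0.93 ± 0.12 in the mean of the genotypes and LHCB4.1 by -0.53 ± 0.16, both smaller than the 3.54 of NRT2.5.

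The genes most like HHO2 were AT3G07350 (r = 0.924), AT1G49500 (0.922), AT4G32340 (0.913), AT3G23080 (0.911) and AT4G37190 (0.885). Since they were chosen by correlation over the same arrays, the direction of their change was fixed by the choice, and their values are a description. All 5 were lower at T60 on low nitrate than on high nitrate in the mean of Col-0 and atg5, with log2 changes from -5.05 for AT1G49500 to -1.07 for AT4G37190, with HHO2 at -2.49 between them. Most opposed were FER (-0.931), for the receptor kinase FERONIA, AT2G47880 (-0.871) and ALN (-0.864), for allantoinase, an enzyme that recovers nitrogen from purines. In the same comparison ALN was higher by 1.41 ± 0.25 and FER by 1.08 ± 0.15. HHO2 had 4 probe sets above 0.9 and 1 below -0.9.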

How the data were processed

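Each array gave 1 intensity per probe set, which the authors made with MAS5 per the submitters' processing notes. No version and no detection calls are given in the sources used here. The deposited signals had a mean of 500.0 in each array after trimming 2% at each end. No other step between arrays was found, and the number of arrays limits the precision.

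The 64 control probe sets were left out, and log2 signals were used with a floor of 1 on the signal. Probe sets under the 40th percentile of mean log2 signal, a geometric mean of 93.9, were dropped, which left 13648 of 22746. The model was fitted with limma 3.58.1 in R 4.3.3 (lmFit, eBayes with trend), on 8 group means with culture as a block, leaving 7 residual degrees of freedom, with 21 two-sided contrasts. The high-nitrate arrays were a group of their own. The fit was tested on simulated data.

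The labels mark a culture by number, so the culture block pairs the arrays. The differences between cultures correlated at -0.159 to 0.686 across probe sets over 28 pairs of groups (median -0.0657), and 8 pairs were over 0.1.

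The probe annotation names 1 gene for 13513 probe sets, several for 503 and lists none for the others. HHO2 and other symbols missing from it were matched by locus. Named besides NRT2.5 and HHO2 were loci of the NRT2 and NAR2 and NIGT1/HRS1 lists, up to 4 members past the threshold of other lists, and the 5 probe sets most and 3 least correlated with each gene. The genes, lists and alternatives were chosen with earlier results of these data known. Alternatives covered normalization, filter, added signal, trend, block, single cultures and left-out arrays.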

Additional observations from a re-analysis of the deposited data

How the results depend on the processing

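Each of the 42 values (21 comparisons of NRT2.5 and of HHO2) was recomputed under 6 changes to the fit and within each culture. Within each culture the values past the threshold kept their direction. Some of the others had opposite signs in culture 1 and culture 2. Examples were NRT2.5 for low nitrate T30 in Col-0 (2.64 and -0.79) and the HHO2 age change of atg5 minus Col-0 (1.11 and -0.80). Without the replicate block every value kept its direction and its side of the threshold, the NRT2.5 low nitrate T60 mean among them (2.81, adjusted p = 0.0282). Adding 32 to the signals also kept all 42, and for NRT2.5 so did quantile normalization, no filter and no trend. For HHO2 these kept all but low nitrate T30 against high nitrate in Col-0, which missed the threshold with quantile normalization (-1.24), no filter (-1.38) and no trend (-1.38). The cause was not tested. Without the 2 arrays that stood apart, NRT2.5 passed with age in Col-0 (3.06) and for low nitrate T60 in Col-0 (2.75). It turned for low nitrate T30 in Col-0 (-0.30), atg5 against Col-0 at T30 (0.044) and atg9 against atg5 at T60 (-0.74), none of them past the threshold. In the same fit HHO2 missed with age in Col-0 (-1.10) and passed in atg5 for low nitrate T30 (-0.95) and T60 (-2.91). It turned for atg5 against Col-0 at T60 (-0.10), atg9 against atg5 at T60 (0.20), the atg5 minus Col-0 age change (-0.85) and the atg5 minus Col-0 nitrate change at T60 (-0.13). Leaving out 1 array at a time, with fewer arrays in each such fit, kept every call of NRT2.5 with age (atg9 4.05 to 5.40, atg5 2.87 to 5.25, mean 3.08 to 3.99) and the 3 HHO2 calls on means. The NRT2.5 low nitrate T60 mean ran from 2.21 to 3.41. The HHO2 calls were lost in some of these fits with age in atg9 (-1.65 to -1.28, 4 of 16), atg5 (-1.92 to -0.58, 3 of 16) and Col-0 (-1.81 to -0.99, 3 of 16), and for Col-0 at low nitrate T30 (-1.59 to -1.17, 12 of 16) and T60 (-3.19 to -2.37, 2 of 16). HHO2 passed in 2 of 16 for atg5 at low nitrate T30 (-1.24 to -0.66) and T60 (-2.87 to -1.53), and in 1 of 16 for atg5 against Col-0 at T60 (-0.057 to 1.28). Values that never passed but turned were, for NRT2.5, low nitrate T30 in Col-0 (-0.45 to 2.29) and in the mean (-0.82 to 0.55), atg5 against Col-0 at T30 (-2.55 to 0.19) and T60 (-0.15 to 2.24), atg9 against atg5 at T60 (-0.91 to 1.47) and the nitrate change at T60 (-1.08 to 1.31). For HHO2 they were atg5 against Col-0 on high nitrate (-0.26 to 0.32), atg9 against Col-0 at T30 (-0.021 to 0.37) and T60 (-0.30 to 0.51), atg9 against atg5 at T60 (-1.17 to 0.16), the age changes of atg5 (-0.52 to 0.82) and atg9 (-0.48 to 0.34) minus Col-0, and the nitrate change at T60 (-0.086 to 1.25). Each gene has 1 probe set that names it in the annotation, so no second probe set could be tried. Signal over background limits NRT2.5, which lay under the lower quartile of 3 arrays.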
